A study of Mus musculus with 12 samples.

Results

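The 45 genes described here encode the machinery that copies DNA. They were chosen by symbol from a list of factors for origin licensing, the replicative helicase, the DNA polymerases, the sliding clamp and its loader, single-strand binding, Okazaki fragment maturation and nucleotide supply, and all 45 were found among the 22034 symbols of the footprint table and the 49997 symbols of the RNA table. The cells, mouse ES-E14TG2a embryonic stem cells, grew in 2i and LIF medium. In every group they carried eRF1-dTAG: eRF1, the factor that recognises stop codons and releases the finished protein, was fused to a tag through which the compound dTAG-13 sends it to degradation. Ribosome footprints, the mRNA fragments protected by 80S ribosomes, were sequenced from Gcn2 knockout cells treated with 500 nM dTAG-13 for 1 h, untreated Gcn2 knockout cells, wild-type cells treated in the same way and untreated wild-type cells. Poly(A) RNA was sequenced from treated and untreated wild-type cells. Each of these 6 groups had 2 biological replicates, A and B, so there were 12 libraries. Wild type refers here to Gcn2, the kinase encoded by Eif2ak4 that slows initiation when ribosomes stall or amino acids run short. The labels name neither a vehicle control nor treated cells without the tag, so effects of the compound and of eRF1 loss cannot be told apart.

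DNA replication is prepared in G1, when the origin recognition complex (ORC), Cdc6 and Cdt1 load pairs of MCM2-7 rings onto DNA. In S phase the rings are joined by Cdc45 and GINS into the active helicase, polymerase α-primase lays down primers, and polymerases ε and δ extend them with the help of the clamp PCNA. Many of these genes are known targets of E2F transcription factors. Clustered histone genes, whose mRNAs are made mainly in S phase, are the usual companions of this programme, and the replication genes served here as an S phase comparison for them.

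Footprint libraries held 7874804 to 19691716 counts and RNA libraries 17462458 to 24256097. The members had between 211 and 18659 counts in a footprint library and at least 180 in an RNA library, so none was near zero and all 45 passed the filter on low counts in each comparison. Eif2ak4 had 36 and 78 footprint counts in treated and 44 and 40 in untreated knockout cells, against 256 and 465 in treated and 555 and 527 in untreated wild-type cells, so the libraries matched their genotype labels. Markers of naive pluripotent stem cells summed to between 5895 and 6449 CPM (counts as a share of their library, scaled by TMM within each assay) in the footprint libraries, with all 8 present. The 6 fibroblast markers summed to 7.38 to 14.7 CPM the 5 markers of primitive endoderm to 5.42 to 10.5 CPM and the 5 markers of differentiating ectoderm or mesoderm to 11.7 to 23.4 CPM. CPM are shares of a library, so a change common to all mRNAs was not measured, and fewer cells in S phase cannot be told apart from fewer footprints per cell. In the values below, replicate A is given before replicate B.

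In wild-type cells, 8 of the 45 replication genes rose in footprints after 1 h of dTAG-13, against 2.94% of all 12267 genes tested. They were Pola1, Mcm4, Rrm1, Pole, Orc1, Mcm7, Lig1 and Mcm3, which span primer synthesis, the helicase, nucleotide supply, the leading-strand polymerase, licensing and Okazaki fragment joining. Orc2 alone fell, against 1.94% of all genes. A gene counts as risen or fallen at a Benjamini-Hochberg adjusted p under 0.05 over all genes, by edgeR's quasi-likelihood test. The log2 changes ran from −0.49 to 0.91 with a median of 0.18, beside −0.01 for all genes, and 32 of 45 were above 0, where 48.8% of all genes were. This shift was not particular to replication genes: a list of 27 genes of mitosis had the same median of 0.18, with 19 above 0. The 2 treated libraries lay above both untreated ones for 22 members (22.3% of all genes) and below both for 8 (22.8%). None of the 9 calls was made without untreated library A, 2 without treated A and 4 without treated B, and none with the wild-type libraries fitted alone, where the smallest adjusted p was that of Pole, 0.0717. Without untreated library A the change of Orc1 was 0.44 and that of Rrm1 0.50, which are the called values that moved by over 1.5 times.

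**Figure D1:**
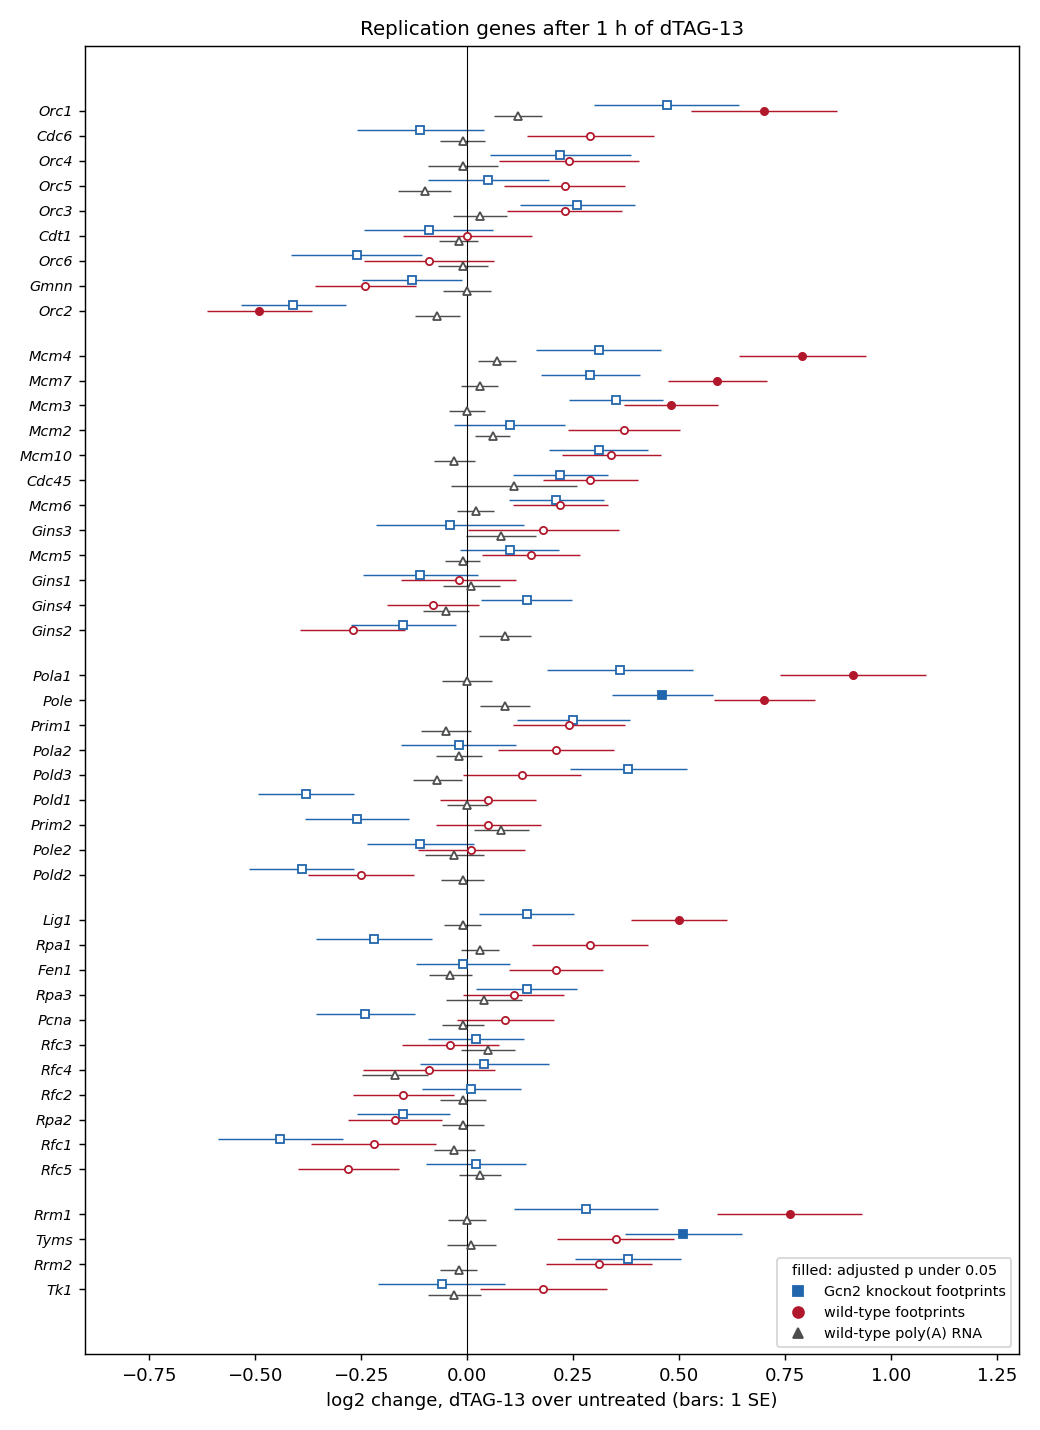
Log2 change in dTAG-13 over untreated cells (x axis) for the 45 replication genes, grouped from top to bottom by licensing, helicase, polymerases, clamp and maturation factors, and nucleotide supply. Squares are Gcn2 knockout footprints, circles wild-type footprints and triangles wild-type poly(A) RNA, bars are 1 SE, and filled symbols have an adjusted p under 0.05; the RNA changes stay between −0.17 and 0.12.

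Since E2F targets are common among these genes, the promoter windows of RefSeq (GRCm38.p6, the assembly behind mm10, from 250 bases before to 50 after a start site) were searched for 4 E2F-like words, TTTCCCGC, TTTCGCGC, TTTGCCGC and TTTGGCGC, on both strands, where overlapping matches were each counted. Windows were held for 37 members (all but Gins1, Gins2, Gins4, Gmnn, Mcm4, Pole, Prim2 and Rfc2), and 15 of these (40.5%) contained at least 1 word, beside 704 of 27025 genes in the table (2.6%) and 481 of the 9704 genes tested in footprints that had a window (4.96%). By role the words were found for 5 of 8 helicase genes, 4 of 8 licensing genes, 4 of 7 polymerase genes, 2 of 10 clamp and maturation genes and 0 of 4 nucleotide supply genes. Of the 8 genes that rose in wild-type footprints, 6 had a window and 5 of these held a word: Mcm3, Mcm7, Orc1, Pola1 and Lig1. Clustered histones held one in 10 of 57 windows (17.5%). These are letters in a window, not tested sites. Of the 5, the 4 windows below show 1 licensing gene, 2 helicase genes and 1 polymerase gene, with the words in capitals. The words begin 20 and 39 bases after the start site of Mcm3, 165 bases before and 17 after that of Mcm7, 27 before that of Orc1 and 138 before that of Pola1.
Mcm3 (chr1:20820263-20820562, minus strand): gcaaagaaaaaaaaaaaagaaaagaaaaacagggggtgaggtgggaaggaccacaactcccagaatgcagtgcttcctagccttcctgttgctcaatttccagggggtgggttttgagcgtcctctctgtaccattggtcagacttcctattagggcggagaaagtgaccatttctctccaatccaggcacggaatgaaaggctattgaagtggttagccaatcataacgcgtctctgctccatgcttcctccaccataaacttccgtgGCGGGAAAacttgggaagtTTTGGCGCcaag
Mcm7 (chr5:138171834-138172133, minus strand): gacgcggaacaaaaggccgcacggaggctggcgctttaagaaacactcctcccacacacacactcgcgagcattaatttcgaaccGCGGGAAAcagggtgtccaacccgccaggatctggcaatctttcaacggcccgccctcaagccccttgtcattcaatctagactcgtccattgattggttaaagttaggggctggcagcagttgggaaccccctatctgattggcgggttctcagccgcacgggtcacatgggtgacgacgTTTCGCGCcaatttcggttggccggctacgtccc
Orc1 (chr4:108579204-108579503, plus strand): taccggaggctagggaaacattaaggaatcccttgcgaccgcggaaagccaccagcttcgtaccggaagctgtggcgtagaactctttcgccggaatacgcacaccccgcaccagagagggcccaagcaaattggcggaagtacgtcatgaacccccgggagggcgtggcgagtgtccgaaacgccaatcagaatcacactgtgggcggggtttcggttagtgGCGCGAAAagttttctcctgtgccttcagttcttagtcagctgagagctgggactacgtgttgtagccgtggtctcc
Pola1 (chrX:93632106-93632405, minus strand): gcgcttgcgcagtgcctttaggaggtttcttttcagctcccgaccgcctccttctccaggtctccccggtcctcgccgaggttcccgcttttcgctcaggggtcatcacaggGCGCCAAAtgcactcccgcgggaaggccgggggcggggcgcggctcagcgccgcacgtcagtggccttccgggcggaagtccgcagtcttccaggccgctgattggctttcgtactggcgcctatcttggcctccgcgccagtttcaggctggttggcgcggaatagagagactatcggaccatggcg

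Among the licensing genes, the largest and the smallest subunit changes in wild-type cells were those of Orc1 and Orc2, in opposite directions. Orc1, the ATPase subunit that joins ORC at the origin (chromosome 4, 108575705 to 108616030, mm10), had 107 and 112 CPM of footprints in treated wild-type cells, against 54.1 and 80.8 CPM in untreated ones (log2 change 0.70, SE 0.172, adjusted p = 0.0358). Orc2, a core subunit (chromosome 1, 58462771 to 58505113), had 53.2 and 59.8 CPM in treated wild-type cells, against 82.6 and 77.0 CPM in untreated ones (log2 change −0.49, SE 0.124, adjusted p = 0.0401). The groups did not overlap for either gene, and the untreated Orc1 libraries were the farther apart. In knockout cells Orc1 had 92.1 and 86.0 CPM with treatment and 71.0 and 57.2 CPM without (0.47, SE 0.171, adjusted p = 0.109). Orc2 had 51.2 and 50.4 CPM in treated and 72.1 and 63.1 CPM in untreated knockout cells (−0.41, SE 0.124, adjusted p = 0.057). Neither passed in the knockout, though again no treated library overlapped an untreated one.

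The other licensing genes did not pass in either genotype. Cdc6, the ATPase that works with ORC to load MCM2-7, had 78.0 and 70.3 CPM in treated against 52.4 and 69.1 CPM in untreated wild-type cells (log2 change 0.29, SE 0.150), and 60.7 and 51.0 CPM in treated against 62.2 and 57.9 CPM in untreated knockout cells (−0.11). Cdt1, the MCM loader that is destroyed once S phase starts, had 349 and 253 CPM in treated against 317 and 283 CPM in untreated wild-type cells (0.00, SE 0.152), and 286 and 296 CPM in treated against 280 and 342 CPM in untreated knockout cells (−0.09). Gmnn encodes geminin, the inhibitor of Cdt1. It had 104 and 88.5 CPM in treated against 111 and 116 CPM in untreated wild-type cells (−0.24, SE 0.119, adjusted p = 0.308), and 96.4 and 89.8 CPM in treated against 103 and 101 CPM in untreated knockout cells (−0.13). Its treated libraries were below its untreated ones in both genotypes, while those of Cdc6 and Cdt1 overlapped in the knockout and, for Cdt1, in wild type. Orc3, Orc4 and Orc5 had wild-type changes of 0.23, 0.24 and 0.23, and Orc6 −0.09.

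Among the helicase genes, 3 of the 6 MCM2-7 subunits rose in wild-type cells. All 6 had changes above 0, with a median of 0.43. Mcm4 (chromosome 16, 15623897 to 15637400) had 493 and 545 CPM in treated wild-type cells, against 258 and 341 CPM in untreated ones (log2 change 0.79, 1.73-fold, SE 0.149, adjusted p = 0.0100). Mcm7 (chromosome 5, 138164583 to 138172111) had 726 and 711 CPM in treated wild-type cells, against 444 and 512 CPM in untreated ones (0.59, SE 0.117, adjusted p = 0.0132). Mcm3 (chromosome 1, 20802966 to 20820312) had 725 and 719 CPM in treated wild-type cells, against 492 and 541 CPM in untreated ones (0.48, SE 0.111, adjusted p = 0.0258). In all 3 genes the treated replicates lay closer together than the untreated ones, and untreated library A was the lowest of the 4. Mcm2 had 731 and 637 CPM in treated against 477 and 582 CPM in untreated wild-type cells (0.37, SE 0.132, adjusted p = 0.138), and the changes of Mcm6 and Mcm5 were 0.22 and 0.15.

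In knockout cells the MCM2-7 subunits were also all above 0, with changes from 0.10 to 0.35 and a median of 0.25, but none passed. Mcm4 had 417 and 348 CPM in treated against 329 and 289 CPM in untreated knockout cells (log2 change 0.31, SE 0.148, adjusted p = 0.222). Mcm7 had 717 and 675 CPM in treated against 552 and 587 CPM in untreated knockout cells (0.29, SE 0.117, adjusted p = 0.146), and Mcm3 743 and 716 CPM against 573 and 575 CPM (0.35, SE 0.111, adjusted p = 0.0722). Mcm2 had 679 and 606 CPM in treated against 585 and 613 CPM in untreated knockout cells (0.10), so its groups overlapped there.

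No factor that turns the loaded rings into a moving helicase passed in either genotype. Cdc45 had 122 and 108 CPM in treated against 95.8 and 92.9 CPM in untreated wild-type cells (log2 change 0.29, SE 0.112, adjusted p = 0.178), and 113 and 115 CPM in treated against 97.2 and 98.8 CPM in untreated knockout cells (0.22, adjusted p = 0.259). Mcm10, which helps start the helicase, had changes of 0.31 in knockout and 0.34 in wild-type cells. Of the 4 GINS subunits, 1 was above 0 and 3 below in wild-type cells, with a median of −0.05. Gins1, Gins3 and Gins4 had changes of −0.11, −0.04 and 0.14 in knockout cells and −0.02, 0.18 and −0.08 in wild-type cells. Gins2 was the lowest, at 74.3 and 72.3 CPM in treated against 93.6 and 82.6 CPM in untreated wild-type cells (−0.27, SE 0.124, adjusted p = 0.264) and 84.2 and 82.8 CPM in treated against 84.9 and 99.7 CPM in untreated knockout cells (−0.15). GINS and MCM2-7 thus lay on different sides of 0 in wild-type cells by their medians, and no test of that difference was made.

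Among the polymerases, the catalytic subunits of α and ε rose in wild-type cells, and no other subunit passed. Pola1, the catalytic subunit of polymerase α (chromosome X, 93304766 to 93632387), had 107 and 97.1 CPM in treated wild-type cells, against 43.5 and 65.1 CPM in untreated ones (log2 change 0.91, 1.88-fold, SE 0.172, adjusted p = 0.0109). This was the largest change of the 45 genes in wild-type footprints. Pole, the catalytic subunit of the leading-strand polymerase (chromosome 5, 110286319 to 110337468), had 138 and 122 CPM in treated wild-type cells, against 75.9 and 83.5 CPM in untreated ones (0.70, 1.63-fold, SE 0.119, adjusted p = 0.00624). Its adjusted p was the lowest of the 45. The partners Pola2, Prim1 and Prim2, the regulatory and the primase subunits, had changes of 0.21, 0.24 and 0.05, and Pole2, the second subunit of polymerase ε, 0.01.

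Pole also rose in knockout cells, where it had 115 and 112 CPM with treatment and 86.5 and 78.5 CPM without (log2 change 0.46, 1.38-fold, SE 0.119, adjusted p = 0.0295). It was the only member called in both genotypes. Pola1 had 71.6 and 71.9 CPM in treated against 61.4 and 50.3 CPM in untreated knockout cells (0.36, SE 0.172, adjusted p = 0.217). The subunits of polymerase δ, which copies the lagging strand, lay on both sides of 0 in the knockout. Its catalytic subunit Pold1 had 102 and 99.6 CPM in treated against 124 and 139 CPM in untreated knockout cells (−0.38, SE 0.113, adjusted p = 0.0514). Pold2 had 76.8 and 77.5 CPM in treated against 92.6 and 110 CPM in untreated knockout cells (−0.39, SE 0.124, adjusted p = 0.0663). Pold3, by contrast, had 65.7 and 65.5 CPM in treated against 49.9 and 50.6 CPM in untreated knockout cells (0.38, SE 0.138, adjusted p = 0.106). No groups overlapped for these 3 genes, and none of them passed. In wild-type cells Pold1 had 112 and 112 CPM with treatment and 104 and 113 CPM without (0.05), Pold2 84.3 and 76.8 CPM against 99.7 and 91.5 CPM (−0.25), and Pold3 52.8 and 70.6 CPM against 57.0 and 56.8 CPM (0.13).

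**Figure D2:**
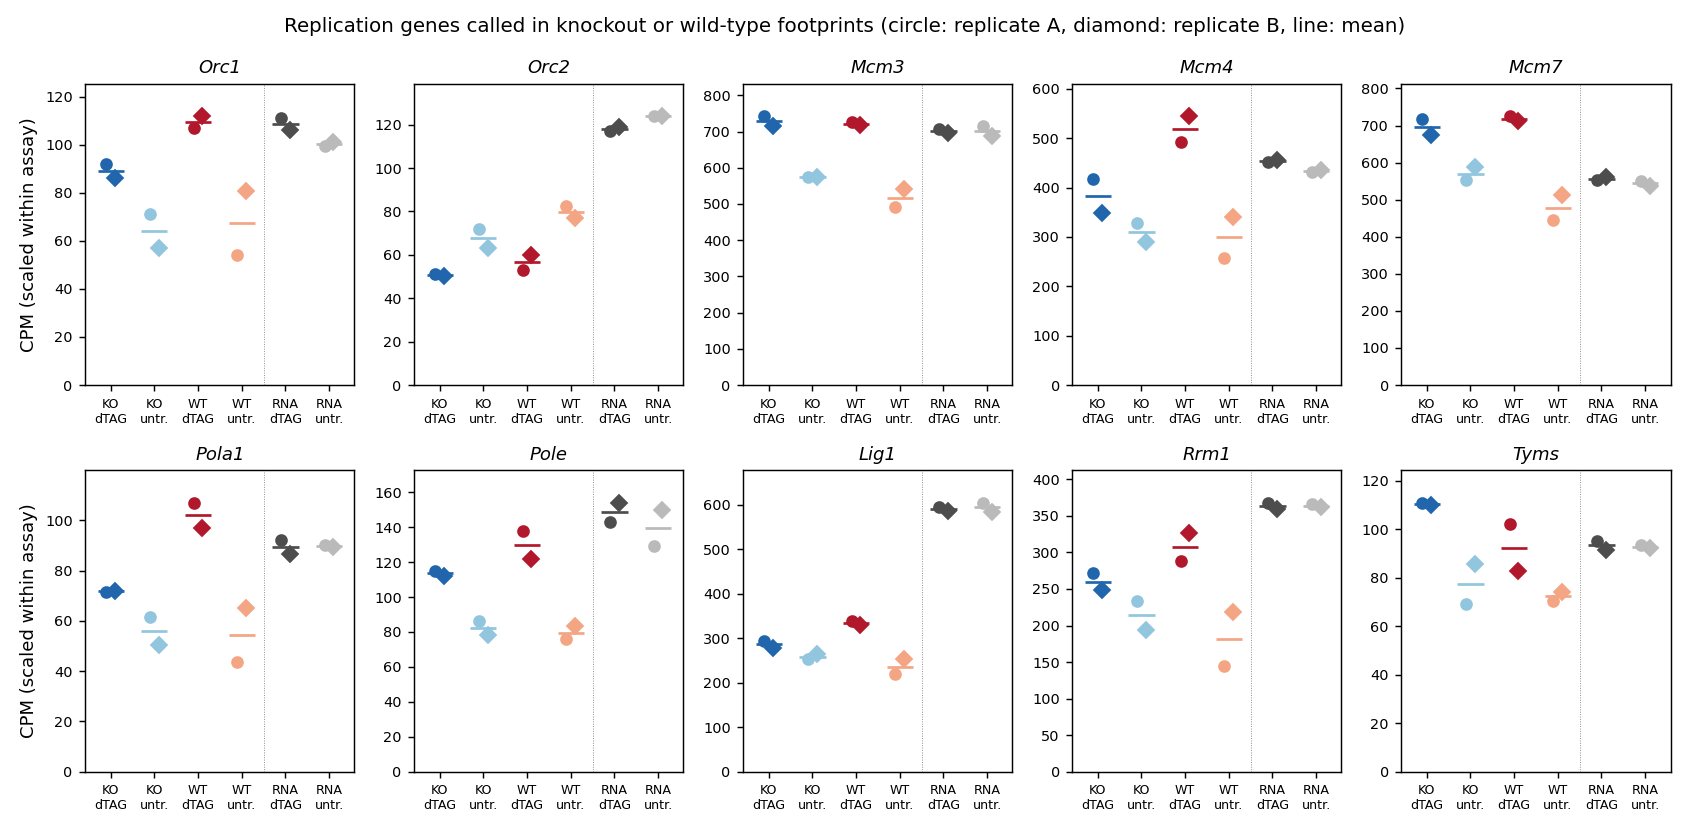
Footprint and RNA levels in every library (y axis, CPM scaled within each assay, from 0) of the 10 replication genes called in knockout or wild-type footprints. KO is Gcn2 knockout, WT wild type, untr. untreated; circles are replicate A, diamonds replicate B and lines the mean of the 2, and Pola1, for example, sits at 107 and 97.1 CPM in treated against 43.5 and 65.1 CPM in untreated wild-type footprints while its RNA stays between 86.6 and 92.1 CPM.

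The clamp, its loader, the single-strand binding protein, Fen1 and Lig1 were grouped as 1 role. Its median change in wild-type cells, −0.04 over 11 genes, was the lowest of any role. All 5 subunits of the clamp loader RFC were below 0, between −0.28 and −0.04, and none passed. Rfc2 and Rfc3, small subunits, had changes of 0.01 and 0.02 in knockout cells and −0.15 and −0.04 in wild-type cells. Rfc5, another small subunit, had 183 and 179 CPM in treated against 237 and 204 CPM in untreated wild-type cells (log2 change −0.28, SE 0.119, adjusted p = 0.212), and 224 and 217 CPM in treated against 202 and 232 CPM in untreated knockout cells (0.02). Rfc1, the large subunit, had 60.0 and 71.2 CPM in treated against 69.7 and 83.5 CPM in untreated wild-type cells (−0.22, SE 0.147), where the groups overlapped. In knockout cells it had 59.3 and 50.8 CPM with treatment and 81.3 and 68.1 CPM without (−0.44, SE 0.147, adjusted p = 0.0818), the lowest change of the 45 genes there. Pcna, the sliding clamp itself, had 743 and 690 CPM in treated against 631 and 717 CPM in untreated wild-type cells (0.09, SE 0.115), and 569 and 555 CPM in treated against 655 and 672 CPM in untreated knockout cells (−0.24, SE 0.116, adjusted p = 0.222). Processed pseudogenes of Pcna and Tyms are annotated in mouse, and the handling of reads that match several places is not stated in the sources at hand.

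Lig1, the ligase that joins Okazaki fragments, was the exception in this role and rose in wild-type cells. Lig1 (chromosome 7, 13277175 to 13311426) had 339 and 330 CPM in treated wild-type cells, against 219 and 254 CPM in untreated ones (log2 change 0.50, SE 0.113, adjusted p = 0.0238). In knockout cells it had 295 and 278 CPM with treatment and 254 and 264 CPM without (0.14, SE 0.113, adjusted p = 0.473). Fen1, the nuclease that trims the flap before ligation, had 168 and 149 CPM in treated against 142 and 131 CPM in untreated wild-type cells (0.21, SE 0.111), and 159 and 159 CPM in treated against 160 and 160 CPM in untreated knockout cells (−0.01). Rpa1, the large subunit of the single-strand binding protein, had 289 and 304 CPM in treated against 208 and 276 CPM in untreated wild-type cells (0.29, SE 0.137, adjusted p = 0.268). In knockout cells its treated libraries were the lower ones, at 259 and 228 CPM against 292 and 276 CPM (−0.22, SE 0.137, adjusted p = 0.343). Neither Fen1 nor Rpa1 passed in either genotype. Rpa2 had changes of −0.15 in knockout and −0.17 in wild-type cells, and Rpa3 of 0.14 and 0.11.

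The 4 nucleotide supply genes were all above 0 in wild-type cells, with a median of 0.33. Rrm1, the large subunit of ribonucleotide reductase (chromosome 7, 102441695 to 102469771), had 288 and 326 CPM in treated wild-type cells, against 145 and 218 CPM in untreated ones (log2 change 0.76, 1.69-fold, SE 0.171, adjusted p = 0.0255). Its untreated replicates differed more than its treated ones. Rrm2, the small subunit that limits the enzyme through the cell cycle, had 509 and 585 CPM in treated against 403 and 481 CPM in untreated wild-type cells (0.31, SE 0.125, adjusted p = 0.198). In knockout cells Rrm1 had 272 and 248 CPM with treatment and 234 and 194 CPM without (0.28, SE 0.170, adjusted p = 0.342), and Rrm2 617 and 584 CPM against 467 and 454 CPM (0.38, SE 0.125, adjusted p = 0.0764). Tyms, thymidylate synthase (chromosome 5, 30038546 to 30073645), rose in knockout cells, to 111 and 110 CPM in treated cells against 69.4 and 85.8 CPM in untreated ones (0.51, 1.42-fold, SE 0.137, adjusted p = 0.0362). In wild-type cells Tyms had 102 and 83.0 CPM with treatment and 70.5 and 74.2 CPM without (0.35, SE 0.138, adjusted p = 0.181). Tk1, the thymidine salvage kinase, had 98.6 and 87.2 CPM in treated against 73.4 and 90.3 CPM in untreated wild-type cells (0.18), and 80.9 and 79.6 CPM in treated against 72.8 and 95.1 CPM in untreated knockout cells (−0.06), with overlap in both.

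In Gcn2 knockout cells as a whole, 2 of the 45 genes rose, Tyms and Pole, against 3.16% of all genes tested. By edgeR 0 of the 45 fell, against 5.71% of all genes, with 4 at an unadjusted p under 0.05 (12.4% of all genes): Orc2, Pold1, Pold2 and Rfc1. DESeq2 called these 4 as lower (6.5% of all genes), besides the same 2 as higher (3.24%). The median change was 0.04, equal to that of all genes, and the changes ran from −0.44 to 0.51. Treated libraries lay above both untreated ones for 19 members (32.5% of all genes) and below both for 14 (27%). Pole lost its call without each single knockout library (log2 change 0.39 to 0.53, adjusted p 0.0687 to 0.28), and Tyms kept its call only without untreated library B (0.67, adjusted p = 0.0379; 0.36 to 0.47 without each of the others).

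The difference between the genotypes' responses was tested directly, by subtracting the wild-type change from the knockout one. By edgeR 0 of the 45 genes passed, where 0.0489% of all genes did, and DESeq2 called 0, where it called 0.946% of all genes. At an unadjusted p under 0.05, 5 members were lower in the knockout (5.22% of all genes) and 0 higher. They were Pola1 (change of 0.36 in knockout and 0.91 in wild-type cells, difference −0.55, SE 0.242, adjusted p = 0.48), Rpa1 (difference −0.52, SE 0.194), Mcm4 (−0.49, SE 0.209), Pold1 (−0.43, SE 0.159) and Lig1 (−0.36, SE 0.160). The median difference was −0.12, beside 0.01 for all genes, and 30 of 45 members were below 0, as were 6055 of all 12267 genes. For Gins4, Prim2, Rpa1 and Fen1 the treated libraries lay on opposite sides of the untreated ones in the 2 genotypes without overlap (5.62% of all genes), and none of these differences passed. On the other hand, 15 members were higher without overlap in both genotypes (12.4% of all genes) and 5 lower (11.8%). Across the 45 genes the 2 sets of changes, which share no library, had a Pearson r of 0.73 and a Spearman rho of 0.74, beside 0.45 and 0.44 over all 12267 genes. Over 58 clustered histones r was 0.88 and rho 0.89. The SE of a wild-type footprint change was at most 0.178 among the members but up to 2.4 over all genes. The correlations of the members and of all genes are therefore not like for like. These are descriptions across genes, which are not independent replicates, and the 8 libraries were scaled together.

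**Figure D3:**
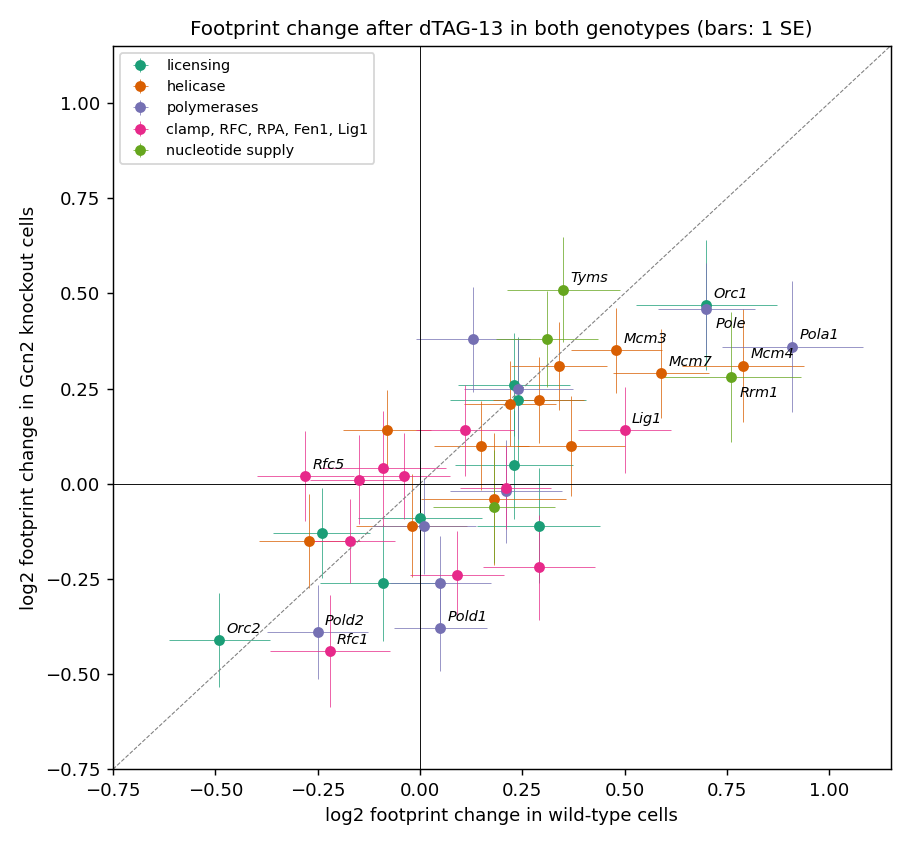
Log2 footprint change after dTAG-13 in Gcn2 knockout cells (y axis) against wild-type cells (x axis) for the 45 replication genes, coloured by role, with bars of 1 SE; the dashed line marks equal change. Pola1, Mcm4 and Rrm1 lie well below the line, Tyms above it, and Orc2 at −0.41 and −0.49 near its lower end.

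Without treatment, no replication gene was called between the genotypes. Between untreated knockout and untreated wild-type cells, edgeR called 0 of the 45, where 0.00815% of all genes were called, namely Eif2ak4 itself. DESeq2 called 0 of the 45, where it called 0.261% of all genes. At an unadjusted p under 0.05, 2 members were higher in the knockout (3.32% of all genes): Pold1 (log2 difference 0.28, SE 0.112) and Mcm7 (0.25, SE 0.117). The differences ran from −0.24 for Orc2 to 0.28 for Pold1, with SEs of 0.107 to 0.172.

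In poly(A) RNA of wild-type cells no replication gene passed over the same hour. By edgeR 0 of 45 passed, where 0.163% of all 15955 genes tested did, and DESeq2 called 0, where it called 0.0501% of all genes. At an unadjusted p under 0.05 there was 1 higher (2.79% of all genes) and 1 lower (2.34%). The changes ran from −0.17 to 0.12, with a median of −0.01 and an SD across the 45 genes of 0.0545, against 0.314 for wild-type footprints. Orc1 was the highest, at 111 and 106 CPM in treated against 99.3 and 101 CPM in untreated cells (log2 change 0.12, SE 0.0555, adjusted p = 0.939). Rfc4, another subunit of the clamp loader, was the lowest, at 34.0 and 34.6 CPM in treated against 39.9 and 37.0 CPM in untreated cells (−0.17, SE 0.0768, adjusted p = 0.939). For the genes that rose most in footprints the RNA groups overlapped or differed little. Pola1 RNA was 92.1 and 86.6 CPM in treated against 90.1 and 89.3 CPM in untreated cells, Rrm1 RNA 368 and 360 CPM against 366 and 362 CPM, and Mcm4 RNA 451 and 455 CPM against 431 and 435 CPM. Pole RNA was 143 and 154 CPM against 129 and 150 CPM (log2 change 0.09), and its log2 change was 0.21 without untreated library B. Orc2 RNA was 117 and 119 CPM in treated against 124 and 124 CPM in untreated cells (−0.07), and Orc5 66.8 and 69.2 CPM against 75.1 and 70.6 CPM (−0.10). All members not named in this paragraph had RNA changes between −0.07 and 0.11 in log2.

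Translational efficiency, the footprint change less the RNA change in wild-type cells, gave no call among the members. By edgeR 0 of 45 passed, where 1.47% of all genes tested did. At an unadjusted p under 0.05, 11 members were higher (7.38% of all genes) and 3 lower (6.87%). DESeq2 called 7 members higher, where it called 3.47% of all genes in either direction. Those 7 were Pola1, Rrm1, Mcm4, Pole, Mcm7, Lig1 and Mcm3, all among the 8 that rose in footprints. In edgeR's fit Pola1 changed by 0.91 (SE 0.217, adjusted p = 0.0699), Rrm1 by 0.76 (SE 0.219, adjusted p = 0.126), Mcm4 by 0.73 (SE 0.174, adjusted p = 0.0699) and Pole by 0.61 (SE 0.150, adjusted p = 0.0773). Orc2 was at −0.42 (SE 0.128, adjusted p = 0.144). Without untreated footprint library B, 9 members passed, as did 5.06% of all genes. For Cdc45 the RNA side is uncertain: it had 8.37 and 10.4 CPM of RNA in treated against 7.98 and 9.29 CPM in untreated cells, and Ufd1, whose annotated span (chromosome 16, 18811736 to 18835261) overlaps that of Cdc45 (18780447 to 18811972), also had only 112 to 138 RNA counts beside 872 to 1576 footprint counts. Low RNA beside many footprints was not limited to this pair. The stem cell marker Pou5f1 had 4.89 to 6.88 CPM of RNA beside 1048 to 1395 CPM of footprints. For Kif11, a gene of mitosis, these were 9.96 to 11.8 and 121 to 225 CPM. The cause was not tested. The treatment of reads over overlapping genes, and of strand, in the counting is not stated in the sources. Orc1, Mcm7, Lig1, Rfc4, Fen1 and Tk1 also overlap other protein-coding genes in RefSeq.

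Subunits of 1 complex could be set against each other within a library, where scaling plays no part; these pairs were picked after their values were seen and carry no test. The footprint count ratio of Orc1 to Orc2 was 1.80 and 1.71 in treated against 0.985 and 0.908 in untreated knockout cells, and 2.01 and 1.87 in treated against 0.655 and 1.05 in untreated wild-type cells. Pole to Pole2 gave 2.53 and 2.41 in treated against 1.64 and 1.69 in untreated knockout cells, and 2.65 and 2.05 in treated against 1.38 and 1.49 in untreated wild-type cells. Pola1 to Prim2 gave 1.48 and 1.56 in treated against 1.02 and 0.953 in untreated knockout cells, and 2.04 and 1.79 in treated against 0.841 and 1.28 in untreated wild-type cells. These 3 ratios, and that of Mcm7 to Mcm5, were higher in each treated library than in any untreated library of the same genotype; the other 3 pairs compared were not. In RNA, Orc1 to Orc2 was 0.946 and 0.897 in treated against 0.799 and 0.813 in untreated cells, and Pola1 to Prim2 1.48 and 1.41 against 1.53 and 1.54. The ratio of Mcm4 to Mcm5 was 0.472 and 0.549 in treated against 0.277 and 0.379 in untreated wild-type cells, but overlapped in the knockout, at 0.368 and 0.324 in treated against 0.337 and 0.267 in untreated cells. Rrm1 to Rrm2 was 0.442 and 0.424 in treated against 0.500 and 0.428 in untreated knockout cells, where the groups overlapped, and 0.566 and 0.558 in treated against 0.361 and 0.453 in untreated wild-type cells. Pold3 to Pold1 was 0.645 and 0.658 in treated against 0.402 and 0.365 in untreated knockout cells, but overlapped in wild type, at 0.470 and 0.630 in treated against 0.546 and 0.504 in untreated cells.

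**Figure D4:**
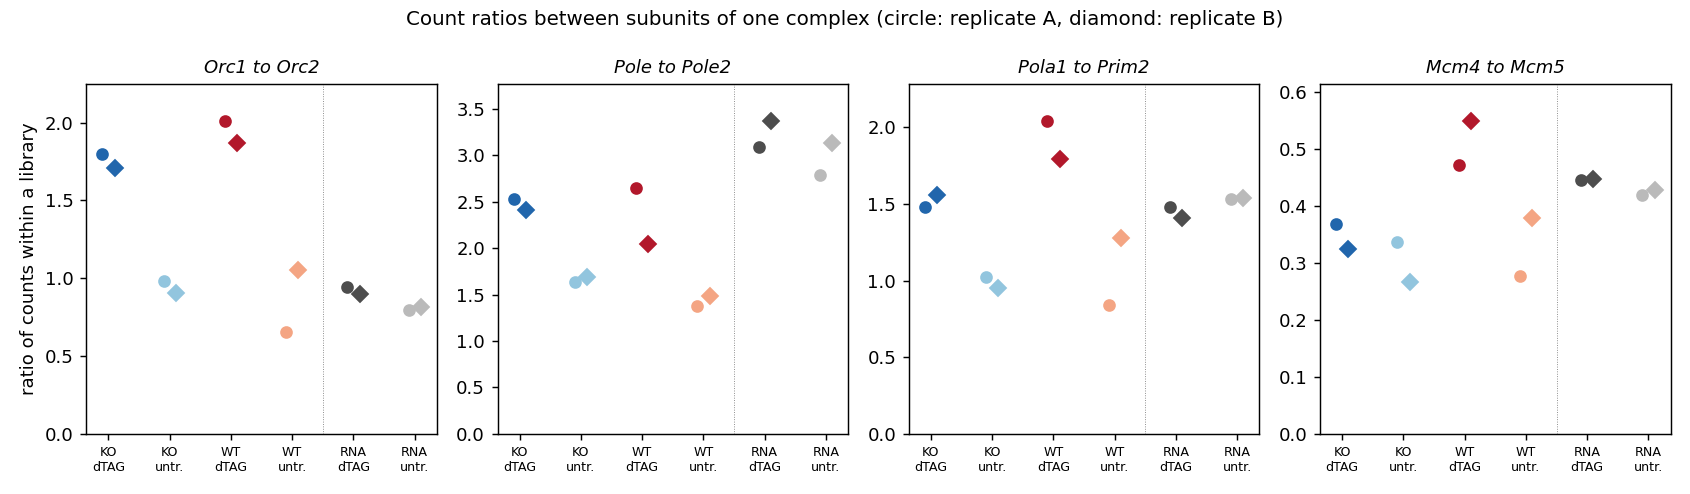
Ratio of the counts of 2 subunits of the same complex within each library (y axis, from 0), for footprints of Gcn2 knockout (KO) and wild-type (WT) cells and for wild-type RNA; untr. is untreated, circles are replicate A and diamonds replicate B. The ratio of Orc1 to Orc2 is between 1.71 and 2.01 in the 4 treated footprint libraries, against 0.655 to 1.05 in the 4 untreated ones.

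Set beside the clustered histones, the replication genes had the smaller median footprint change in both genotypes; no test between the lists was made. Of 66 histone symbols 58 were tested, and their median footprint change was 1.23 in knockout and 0.64 in wild-type cells, against 0.04 and 0.18 for the replication genes. Since the handling of reads that match several places is not stated, histone genes of similar sequence may share counts, and their calls may not be separate. In the knockout 36 histones rose (3.16% of all genes) and 2 fell (5.71%). In wild type 23 histones rose (2.94% of all genes) and none fell (1.94%), with 37 higher and 1 lower at an unadjusted p under 0.05 (1233 and 1102 of all 12267 genes). Summed over the 45 replication genes, footprints were 9994 and 9459 CPM in treated against 9003 and 9060 CPM in untreated knockout cells, and 10162 and 10025 CPM in treated against 8128 and 8807 CPM in untreated wild-type cells. Histone footprints summed to 19926 and 20383 CPM in treated against 12791 and 15551 CPM in untreated knockout cells, and to 21593 and 15776 CPM in treated against 14122 and 13629 CPM in untreated wild-type cells. Both sums were higher in every treated library than in any untreated library of the same genotype. A sum gives most weight to genes with many footprints, such as MCM2-7, whose 6 genes were all above 0 in both genotypes. Counted by gene, 26 replication genes were above 0 and 19 below in the knockout, and their median of 0.04 equalled that of all genes. The median difference between the genotypes' changes was 0.36 for the histones, with 51 of 58 above 0, and −0.12 for the replication genes, with 30 of 45 below 0. EdgeR called 0 genes of either list (0.0489% of all genes). Unadjusted p was under 0.05 for 10 histones higher and 2 lower, beside 589 and 640 of all 12267 genes. By replicate letter, the replication genes had median log2 ratios of 0.12 (A) and 0.00 (B) in knockout cells and 0.24 (A) and 0.13 (B) in wild-type cells, and the histones 1.32 (A) and 0.98 (B) in knockout cells and 0.87 (A) and 0.50 (B) in wild-type cells. The RNA cannot serve the same comparison, since most clustered histone mRNAs end in a stem-loop in place of a poly(A) tail: their RNA summed to 34.4 to 44.6 CPM per library, while that of the replication genes was 10365 and 10279 CPM in treated against 10265 and 10246 CPM in untreated cells.

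**Figure D5:**
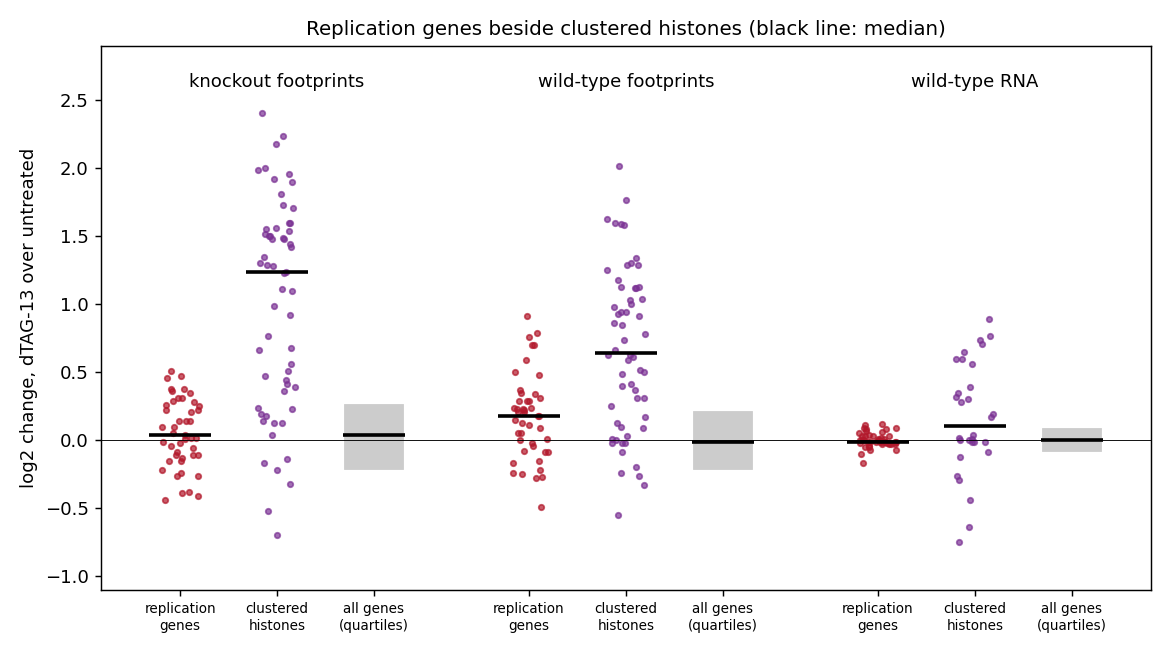
Log2 change in dTAG-13 over untreated cells (y axis) of each replication gene and each clustered histone gene tested, in knockout footprints, wild-type footprints and wild-type RNA; black lines are medians and grey boxes the span from the lower to the upper quartile of all genes tested. Histone medians are 1.23 and 0.64 in knockout and wild-type footprints, against 0.04 and 0.18 for the replication genes.

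A further 37 genes that act in replication but were not among the 45, such as the origin-firing kinase Cdc7, checkpoint factors, topoisomerases and dNTP enzymes, were counted in the same way. In knockout footprints 1 of them fell, Shmt1, an enzyme of the folate cycle (log2 change −0.48, SE 0.109, adjusted p = 0.0155). None rose there in edgeR's test (5 at an unadjusted p under 0.05, beside 1486 of all 12267 genes). In wild-type footprints 1 rose, Top2a, the topoisomerase that untangles replicated DNA (0.92, SE 0.189, adjusted p = 0.0171). None fell there (2 at an unadjusted p under 0.05, beside 1102 of all 12267 genes). Over all genes 5.71% fell and 3.16% rose in knockout footprints, and 1.94% fell and 2.94% rose in wild-type footprints. The medians of the 37 genes were 0.10 in knockout and 0.12 in wild-type cells.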

How the data were processed

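Footprint libraries (RNase I digestion and 80S gradient fractions, per the labels' protocols) and poly(A) RNA libraries were deposited by the authors as raw counts per gene symbol. Per the submitters' processing notes the tools included CASAVA 1.4, cutadapt and HISAT2 2.1.0, with mm10; the counting tool, its annotation, and its use of strand and of multi-mapping reads were not given in the sources used here.

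From the counts, genes passing filterByExpr (minimum count 10) were scaled by TMM and tested with edgeR 4.0.16 (glmQLFit, robust; R 4.3.3), two-sided, with Benjamini-Hochberg adjustment over all genes tested. The 8 footprint libraries were fitted together (12267 genes, 4 residual degrees of freedom, so 1 estimate of spread is shared by both genotypes), the 4 RNA libraries alone (15955 genes), and translational efficiency as the assay by treatment interaction over the 8 wild-type libraries (12887 genes). The SE of a log2 change is its size divided by the square root of F. P-values measure the spread between 2 biological replicates per group. All 45 members were named by role; other genes are named where they passed the test within a listed group. DESeq2 1.42.0 and other alternatives are given at the end. Gene spans and promoter windows come from RefSeq GRCm38.p6. Figures were drawn with matplotlib 3.10.9. The fits were tested on simulated data. The members and lists were chosen with earlier results of these data known.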

Additional observations from a re-analysis of the deposited data

How the results depend on the processing

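The share of all genes called under the same setting is given in brackets. In wild-type footprints 9 members were called with DESeq2 (6.58%), DESeq2 size factors (4.88%) and no filter on low counts (6.36%); 0 were called with the wild-type libraries fitted alone (0.159%), and 0 to 8 with 1 library left out (1.59% to 5.33%; members' median change 0.12 to 0.18). In knockout footprints the 2 higher calls became 2 higher and 2 lower, 4 in all, with DESeq2 size factors (8.95%), 3 higher and 4 lower, 7 in all, without the filter (10.1%), 6 with DESeq2 (9.74%), 10 with the knockout libraries fitted alone (15.8%), and 0 to 1 with 1 library left out (1.71% to 4.85%). The members' knockout median, 0.04, was on either side of 0 by setting: 0.01 with DESeq2 size factors, −0.01 without the filter, 0.00 with the knockout libraries alone and −0.02 to 0.06 with 1 library left out, so it has no stable direction. The median difference between genotypes was −0.15 with DESeq2 size factors, −0.15 without the filter and −0.16 to −0.08 with 1 library left out. Members called for it were 0 with DESeq2 size factors (0.0489%) and 0 without the filter (1.16%). The untreated genotype contrast had a median of 0.04 to 0.13 with 1 library left out. RNA then had a median of −0.01 to 0.01. For translational efficiency 4 members were called without the filter (2.76%), 7 with DESeq2 (3.47%), and 0 to 9 with 1 library left out (0% to 5.06%; members' median 0.13 to 0.20). The cause of these shifts was not tested; fits with fewer libraries also have fewer degrees of freedom.

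The labels do not state whether the replicate letters pair libraries, and they name no shared day or batch. The main fits used no pairing. With only 2 letters, same-letter deviations correlated at 0.565 in wild-type and 0.121 in knockout footprints. Across genotypes they correlated at 0.0206 to 0.128, and in RNA at 0.0196. With the letter as a replicate block, 9 members were called in wild-type (7.59%) and 5 in knockout footprints (12.7%), and 13 for translational efficiency (12.1%). With a block within each genotype, an alternative chosen after seeing the data, 16 were called in wild-type (17.2%) and 18 in knockout footprints (25.7%), and 3 for the difference between genotypes, near the share of all genes (5.98%): Mcm4 at −0.50, Rpa1 at −0.53 and Rrm1 at −0.50.

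With 2 libraries per group, footprint SEs of the members were 0.107 to 0.178, and the smallest change called among them was 0.46 (Pole in knockout cells).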

Other observations

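Genes of mitosis were counted in the same way as the replication genes. Of 27 tested, 1 rose (3.16% of all genes) and 4 fell (5.71%) in treated knockout footprints by edgeR. In treated wild-type footprints 4 rose (2.94% of all genes) and none fell (1.94%), with 1 lower at an unadjusted p under 0.05 (1102 of all 12267 genes). Cdk1, the kinase that drives entry into mitosis, fell in the knockout (log2 change −1.20, SE 0.122, adjusted p = 0.000216), as did Aurkb, the kinase of the chromosomal passenger complex (−0.70, SE 0.128), Kif11, the motor that separates spindle poles (−0.67, SE 0.134), and Mad2l1, a spindle checkpoint protein (−0.48, SE 0.111). Bub1, a spindle checkpoint kinase, rose in knockout cells (0.57, SE 0.115) and in wild-type cells (0.72, SE 0.115). Incenp, Cenpe and Anln rose in wild-type cells, by 0.85, 0.72 and 0.65. The difference between the genotypes' changes had a median of −0.21 over the 27 genes. It was below 0 for 24 of them, as it was for 6055 of all 12267 genes. By edgeR none was called (0.0489% of all genes), and the smallest adjusted p was 0.0656. Unadjusted p was under 0.05 for 1 higher and 6 lower, beside 589 and 640 of all 12267 genes. Their summed footprints were 5789 and 5525 CPM in treated against 5964 and 5486 CPM in untreated knockout cells, and 5708 and 6412 CPM in treated against 4962 and 5678 CPM in untreated wild-type cells, so the wild-type groups nearly met.

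A list of 15 genes for chromatin assembly in S phase also held genes of related steps, such as Slbp, Npat and Dnmt1. Of these 15, Asf1b, a histone chaperone, fell in knockout cells (log2 change −0.65, SE 0.148, adjusted p = 0.0158), as did 5.71% of all genes. Dnmt1, the methyltransferase that maintains DNA methylation after replication, rose in wild-type cells (1.13, SE 0.150, adjusted p = 0.00215), as did 2.94% of all genes. It also rose in translational efficiency (1.07), where 1.47% of all genes were called in either direction. No gene of these lists was called in RNA by edgeR (0.163% of all genes), where 1 chromatin gene and no mitotic gene was higher at an unadjusted p under 0.05 (2.79%).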
